A study of Mus musculus with 12 samples.

Results

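The late RelA regions were the places that entered the wild-type RelA lists only at the last time measured, 8 h after lipopolysaccharide (LPS). A hotspot is a stretch of genome enriched for sequence tags, called by the authors in 1 library. Members were chosen by the presence or absence of listed hotspots, a measured value: hotspots of the wild-type RelA 8 h library that overlapped, by 1 bp or more, no hotspot of wild-type RelA at 0 h, of wild-type RelA at 3 h or of untreated wild-type input DNA. There were 302 of them among the 1890 hotspots deposited for that library and the 50940 of all 10 lists used here. Of the 1878 hotspots of 8 h that met no input hotspot, 16.1% were late, and the other 1576 were already listed at 3 h. That share is the rule itself and nothing is read from it.

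RelA is the transactivating subunit of the most common NF-kB dimer, which rests in the cytoplasm bound to inhibitory IkB proteins. LPS, which Gram-negative bacteria carry on their surface, signals through Toll-like receptor 4 to degrade IkB, and the dimer then enters the nucleus and binds kB sites in promoters and enhancers of inflammatory genes. Resynthesis of IkB proteins limits the first wave of binding, and many genes of the macrophage response are switched on only hours later. Ikaros, encoded by Ikzf1, is a zinc finger DNA-binding protein best known from lymphocyte development, which recruits chromatin remodelling complexes.

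The cells were macrophages grown from bone marrow, and the mouse strain was C57BL/6J. Wild-type cells were treated with LPS for 0, 3 or 8 h and immunoprecipitated for RelA (antibody ab7970) or for Ikaros (antibody M-20), and untreated wild-type cells gave input DNA. Cells labelled as littermate controls received LPS for 0, 3 or 8 h and were immunoprecipitated for RelA with the same antibody. The labels give no age and no number of animals for a library. They list 12 samples, of which 10 had a file used here, with 1 library in each group, so there is no spread between replicates, and no p-value is given. The samples not used are untreated input DNA of littermate control cells and of cells labelled KO. Genotype label, animals and library preparation cannot be told apart between the wild-type and the littermate series.

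Labels and file names disagreed in places that bear on what is late. For 6 of the 9 immunoprecipitated libraries the file name held a time other than the label, beside it or, in 2 of them, in its place. The wild-type RelA library labelled 0 h carries only 3 h in its file name, and that labelled 8 h carries both 3 h and 8 h. The Ikaros library labelled 0 h likewise carries another time in its file name in place of 0 h. The labels were followed, so every statement about time rests on them. Read depth of the libraries is unknown. The lowest z score listed for wild-type RelA was 8.88 at 3 h and 10.9 at 8 h. For littermate RelA it was 8.64 at 3 h and 10.5 at 8 h, and for Ikaros it was 9.82 and 9.75. The littermate lists stood apart from the wild-type RelA lists, with median highest densities of 4.11 to 4.56 against 18.5 to 25.5. Scores of different libraries are not on a common scale, and a region missing from a list may have been bound below that library's threshold.

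Coordinates are those of the deposited lists on build mm9. No genome or gene annotation of mm9 was used here, so regions are named by position alone, and no gene, exon, intron or promoter is assigned to them.

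The late regions were weak and narrow within their own library. These values come from the library that chose the members and are a description. The z score, the authors' measure of enrichment of a hotspot, ran from 10.9 to 37.3 with a median of 13.1 (95% interval of the median 12.6 to 13.4). Hotspots already listed at 3 h had a median z score of 17.4 and reached 108. The highest tag density within a hotspot, in units the authors do not define, had a median of 20.3 (19.7 to 20.9) in late regions and 26.7 (26.2 to 27.4) in the others. Late regions had a median width of 440 bp (427 to 449), against 576 bp (564 to 591).

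Late regions made up less of the list the stronger the hotspot. Of the 295 hotspots of 8 h with a z score below 12, 96 were late, 32.5% (95% exact Clopper-Pearson interval 27.2 to 38.2, which like all intervals of shares here covers counting error alone). The share was 28.3% (23.7 to 33.2) for z scores from 12 to 14 and 17.6% (14.2 to 21.5) from 14 to 18. Among the 776 hotspots with a z score of 18 or more, 25 were late, 3.22% (2.10 to 4.72). The narrowest hotspots listed were 251 bp wide, and 23 late regions (7.62%) had that width, against 34 (2.16%) of the others. A width under 350 bp was found in 31.5% of late regions and in 13.3% of the others.

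**Figure D1:**
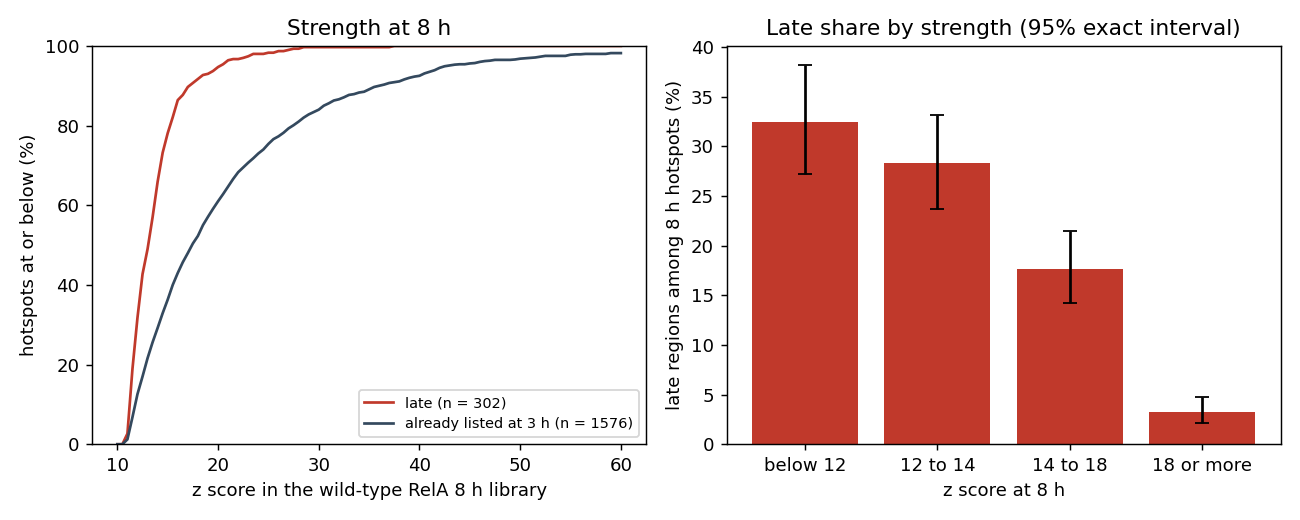
Left, the percentage of hotspots (y axis) at or below each z score in the wild-type RelA 8 h library (x axis), for the 302 late regions and the 1576 already listed at 3 h; the curve of the late regions lies to the left, with medians of 13.1 and 17.4. Right, the percentage of 8 h hotspots that were late (bars) in 4 ranges of z score, with 95% exact intervals (lines); it runs from 32.5% below 12 to 3.22% at 18 or more.

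The rule is an overlap of 1 bp. The member closest to a wild-type 3 h hotspot was chr2:112180666-112181027 (z 11.1), 121 bp away. Next came chr6:87214307-87214684 at 156 bp and chr19:21152981-21153479 (z 14.6) at 188 bp. Just outside the rule, chr17:42984575-42984893 (z 11.3) shared 38 bp with a 3 h hotspot and chr11:87572541-87572847 (z 11.3) shared 77 bp. Had an overlap of at least 50% of both hotspots been asked for, 498 regions would have been late.

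The strongest late region, and the only one with a z score above 30, lay at chr3:60275768-60276480. It was 712 bp wide, with a z score of 37.3 and a highest density of 76.2 in wild-type RelA at 8 h, and the nearest wild-type 3 h hotspot was 281476 bp away. Littermate RelA listed it at 3 h (z 14.8, density 25.8) and at 8 h (z 24.0, density 41.9). Ikaros was listed there at 8 h (z 18.8, density 43.0) and at neither 0 nor 3 h. Of the RelA series, the wild-type one missed it at 3 h and the littermate one did not.

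The region ranked second, chr17:10932866-10933565, had a z score of 28.4 and a highest density of 39.3. Its density in the littermate lists was 17.1 at 3 h and 33.9 at 8 h, and that of Ikaros at 8 h was 38.1. The third, chr16:30678829-30679531, had a z score of 27.2 and a density of 36.4, with 10.6 and 21.6 in the littermate lists at 3 and 8 h and 28.8 for Ikaros at 8 h. Both regions share with the first the order seen in littermate cells, where the hotspot was listed at 3 h and denser at 8 h. At chr10:96904981-96905702 (z 26.6, density 37.4) littermate RelA had densities of 27.7 at 3 h and 50.7 at 8 h, and Ikaros one of 19.6 at 8 h. Densities of different libraries may not share a scale, so "denser" refers to the deposited values alone.

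The next strongest differed in which other lists held them. At chr13:75358971-75359862, 891 bp wide (z 25.7, density 27.0), no littermate list had a hotspot, and Ikaros had one at 8 h (z 14.7, density 21.8). The widest late region, chr13:35349943-35350855, 912 bp long (density 42.9), had no Ikaros hotspot at any time and a weak littermate hotspot at 3 h (z 9.14, density 9.94). At chr12:56461828-56462546 (z 23.4, density 41.6) Ikaros at 8 h had a density of 43.9, and no littermate list had a hotspot.

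Over the 10 strongest, Ikaros was listed at 8 h in 9 and at 3 h in 0. Of all 776 hotspots of 8 h with a z score of 18 or more, Ikaros was listed at 8 h in 89.6% and at 3 h in 67.7%. Littermate RelA was listed at 3 h in 8 of the 10 and at 8 h in 6, beside 89.8% and 73.1% of the 776. The 10 all had z scores of 22.5 or more, and other hotspots of that strength were not counted. At the same limit of 18 or more there were 25 late regions. Ikaros at 8 h was listed in 72.0% (50.6 to 87.9) of these and littermate RelA at 3 h in 56.0% (34.9 to 75.6). These shares were below those of the 776. Among the 10 strongest, all 6 listed at both littermate times had a higher deposited density at 8 h. Their littermate z score was higher at 8 h too, except at chr9:18257442-18258041, with 29.0 at 3 h and 18.8 at 8 h. The tenth, chr12:36422589-36423260 (z 22.5), was in the littermate list at 3 h and not at 8 h.

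**Figure D2:**
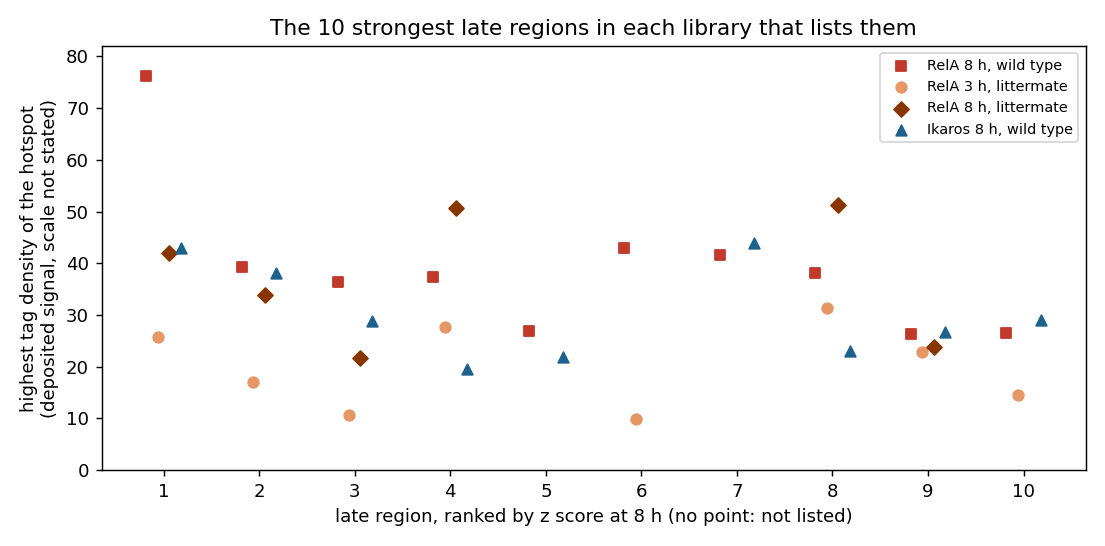
Highest tag density (y axis, deposited signal of unstated scale) of the 10 late regions with the highest z scores (x axis, rank 1 to 10), as wild-type RelA at 8 h (squares), littermate RelA at 3 h (circles) and 8 h (diamonds) and Ikaros at 8 h (triangles); a missing point means that the library lists no hotspot there. Ikaros has a point in 9 regions and littermate RelA at 3 h in 8, while wild-type RelA at 0 and 3 h and Ikaros at 0 and 3 h have none.

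Most late regions were not at the flank of an earlier RelA site. The median distance from a late region to the nearest wild-type RelA 3 h hotspot, edge to edge, was 40694 bp (95% interval of the median 35270 to 58559), with quartiles of 9210 and 199937 bp. Only 15 of 302 (4.97%) lay within 1 kb. The background for this share was Ikaros 8 h hotspots on no wild-type RelA hotspot, of which 4.67% lay as near. Within 10 kb there were 78 late regions (25.8%), against 20.0% of those Ikaros hotspots, and within 100 kb 192 (63.6%) against 58.6%. The median distance of those Ikaros hotspots was 67286 bp (64287 to 70665), so late regions lay nearer to earlier RelA sites by the median and hardly differed within 1 kb. Against 3 h hotspots of z score 12 or more alone the median distance of late regions was 83810 bp.

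The farthest was chrX:26123397-26123648, 5292769 bp from a 3 h hotspot, at the minimum width and with a z score of 12.1, and it was in no other list. The next, chr4:67118919-67119475 (z 19.4), was 3522044 bp away and was in the littermate 3 h list (z 8.81) and the Ikaros 8 h list (z 10.6). Of the 5 farthest, 3 lay on chromosome X. The median z score was 13.2 within 10 kb, 13.0 from 10 to 100 kb and 13.1 beyond 100 kb, while the median highest density was 21.5, 20.9 and 19.0. Ikaros at 8 h was present in 60.3% (48.5 to 71.2), 57.9% (48.3 to 67.1) and 62.7% (53.0 to 71.8) of the regions in these ranges. Ikaros at 3 h was listed in 24.4% (15.3 to 35.4) of those within 10 kb and in 9.09% (4.45 to 16.1) of those beyond 100 kb.

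**Figure D3:**
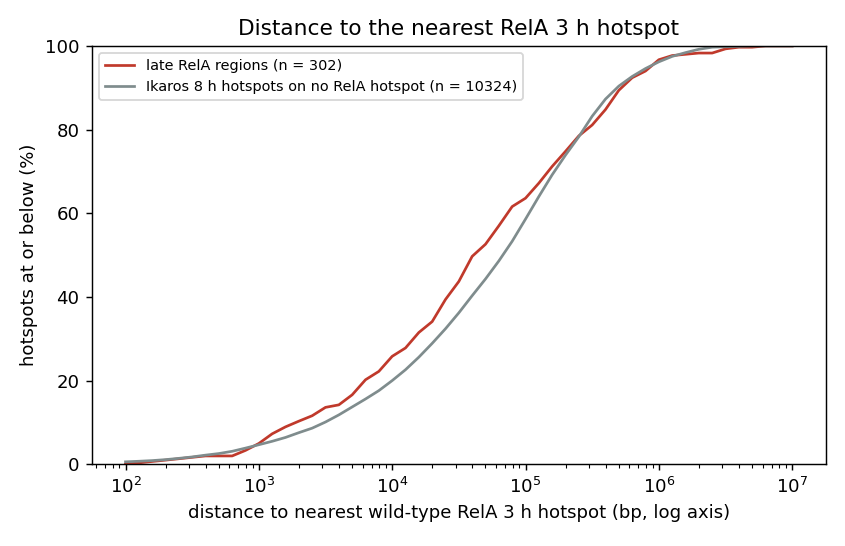
Percentage of hotspots (y axis) at or below each distance to the nearest wild-type RelA 3 h hotspot (x axis, bp, log axis), for the 302 late RelA regions and for the 10324 Ikaros 8 h hotspots on no wild-type RelA hotspot. The curve of the late regions lies slightly to the left at middle distances, with medians of 40694 and 67286 bp.

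Where a late region had an earlier RelA hotspot close by, that hotspot was often still listed at 8 h. The 78 late regions within 10 kb had 75 different 3 h hotspots as their nearest, and 49 of these, 65.3% (53.5 to 76.0), were listed at 8 h, against 31.3% of all 3 h hotspots. These 75 were slightly stronger than the whole 3 h list, with a median 3 h z score of 14.3 against 12.9. Averaged over 3 h hotspots of matching z score, 35.2% were still listed. The excess was not confined to close neighbours. For nearest 3 h hotspots within 100 kb the share was 55.1% against 34.5% at matching z score, and at any distance 47.7% against 33.5%. Both the late region and its neighbour were read from the same 8 h library, so this is a description of that list.

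Ikaros was listed at more late regions at 8 h than at 0 or 3 h. Of the 302, Ikaros was listed at 0 h in 3, 0.993% (0.205 to 2.88), at 3 h in 43, 14.2% (10.5 to 18.7), and at 8 h in 182, 60.3% (54.5 to 65.8). The share at 8 h was 44.4% when an overlap of at least 50% of both hotspots was asked for, and 33.8% with the Ikaros 8 h list held to as many hotspots as that of 3 h. Over all 8 h RelA hotspots the shares were 6.39%, 55.5% and 80.5%. In hotspots already listed at 3 h they were 7.42% (6.18 to 8.83), 63.4% (61.0 to 65.8) and 84.3% (82.4 to 86.1). The late regions thus stood below the rest of their list at each time, and by most at 3 h.

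The gap at 3 h was present in each range of RelA strength. Below 12, Ikaros at 3 h was listed in 17.7% (10.7 to 26.8) of late regions and 52.3% (45.1 to 59.4) of the others. From 12 to 14 it was listed in 15.5% (9.15 to 24.0) and 62.1% (55.9 to 68.0), and from 14 to 18 in 10.3% (4.53 to 19.2) and 57.5% (52.3 to 62.7). At 18 or more it was in 2 of 25 late regions, 8.00% (0.984 to 26.0), and 69.6% (66.2 to 72.9) of the others. For Ikaros at 8 h the shares lay closer, from 54.4% (44.3 to 64.2) to 72.0% (50.6 to 87.9) of late regions and from 78.4% (73.8 to 82.5) to 90.1% (87.8 to 92.2) of the others.

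Most late RelA regions with Ikaros were late for Ikaros too. Of the 182 on an Ikaros 8 h hotspot, 140 had none at 0 or 3 h, 76.9% (70.1 to 82.8), against 32.7% of all RelA 8 h hotspots on an Ikaros 8 h hotspot and 26.6% (24.3 to 29.1) of those already listed at 3 h. The Ikaros 8 h list held 13796 hotspots and that of 3 h 7109. With the 8 h list held to its 7109 strongest by z score, an alternative chosen after the data were seen, 102 late regions carried Ikaros at 8 h and 63 of these, 61.8% (51.6 to 71.2), had none earlier. In the same setting the share was 16.4% for hotspots already listed at 3 h. Of all 302, 140 thus had Ikaros first listed at 8 h, 46.4% (40.6 to 52.2). Ikaros was first listed at 8 h in 26.3% of all 8 h RelA hotspots, whenever RelA itself was first listed, and in 22.5% (20.4 to 24.6) of those already listed at 3 h.

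The Ikaros hotspots at late regions were of ordinary strength for their list. Their median z score was 14.9 against 14.4 for all Ikaros 8 h hotspots, and 100 of 182 were above the latter. Ikaros at RelA hotspots already listed at 3 h had a median of 21.3. Centres of the RelA and the Ikaros hotspot lay a median of 54.5 bp apart, and the Ikaros hotspot was the wider in 75.3% of the 182. Both values were near those of hotspots already listed at 3 h, 61.5 bp and 73.9%. Among the 41 late regions with Ikaros at both 3 and 8 h, the deposited density was higher at 8 h in 38, 92.7%, with medians of 21.9 and 35.5. It was higher at 8 h in 84.1% of the 975 hotspots already listed for RelA at 3 h, and the Ikaros libraries of 3 and 8 h may not share a scale.

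In 3 late regions an Ikaros hotspot of 0 h was overlapped, 0.993% beside 6.39% of all 8 h RelA hotspots. The centres there lay a median of 207 bp apart. Only 1 remained when an overlap of at least 50% of both hotspots was asked for. At chr7:149576043-149576484 (RelA z 12.7 at 8 h) Ikaros z scores were 11.4, 25.5 and 45.2 at 0, 3 and 8 h, the last being the highest Ikaros z score at any late region. At chr6:71975248-71975569 (RelA z 11.6) they were 16.5, 23.1 and 31.9. Both had weak RelA hotspots and no littermate RelA hotspot. These regions were chosen after their values were seen. In 2 late regions, 0.662%, Ikaros was listed at 3 h and not at 8 h. Of all 8 h RelA hotspots, 1.38% had Ikaros listed at 0 or 3 h and not at 8 h.

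**Figure D4:**
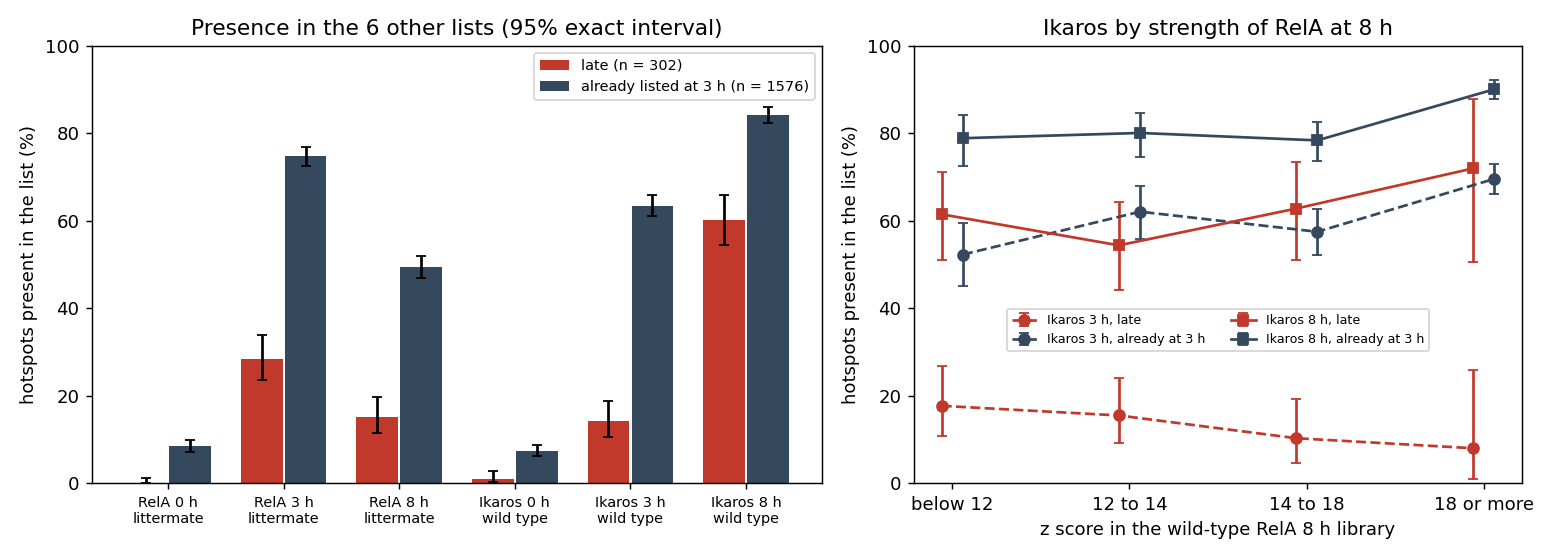
Left, the percentage (y axis) of the 302 late regions and of the 1576 hotspots already listed at 3 h that overlap a hotspot of each of 6 lists (x axis), with 95% exact intervals; the late regions are lower in all 6, at 14.2% against 63.4% for Ikaros at 3 h and 60.3% against 84.3% at 8 h. Right, the same percentages for Ikaros at 3 h (circles, dashed) and 8 h (squares, solid) in 4 ranges of the RelA z score at 8 h (x axis).

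The littermate series did not follow the order that defines these regions. At 0 h none of the 302 was listed in littermate cells, which allows a share of up to 0.993% if 3 regions of 302 are taken as the limit and of up to 1.21% by the exact interval, against 7.08% of all 8 h RelA hotspots and 8.44% (7.11 to 9.92) of those already listed at 3 h. At 3 h 86 were listed, 28.5% (23.5 to 33.9), where 67.4% of all 8 h hotspots were. At 8 h 46 were listed, 15.2% (11.4 to 19.8), where 44.0% of all were. More late regions were thus in the littermate list of 3 h than in that of 8 h, and 86 of the regions missing at 3 h in wild-type cells carried RelA at 3 h in littermate cells.

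The order of the littermate times turned under one way of evening out the lists and stayed under others. The littermate list held 9999 hotspots at 3 h and 5231 at 8 h. Counting only littermate hotspots that reached a density of 10, 80 late regions were listed at 3 h and 46 at 8 h. With the 3 h list held to its 5231 strongest by z score the order turned, to 28 at 3 h and 46 at 8 h, while held to its 5231 densest it stayed at 86. The hotspots concerned were weak by z score and dense by highest density. At the 86 late regions the median littermate z score at 3 h was 11.5, below the 14.5 of the whole list, but the median density was 14.5 against 4.11. At the 46 of 8 h it was 21.9 against 4.56.

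Stronger late regions were found in littermate cells more often. The share in the littermate 3 h list was 13.5% (7.41 to 22.0) for RelA z scores below 12, 33.0% (24.1 to 43.0) from 12 to 14, 32.1% (21.9 to 43.6) from 14 to 18 and 56.0% (34.9 to 75.6) at 18 or more. For hotspots already listed at 3 h in wild type the corresponding shares were 48.7% (41.6 to 55.9), 53.6% (47.4 to 59.8), 71.0% (66.0 to 75.6) and 90.9% (88.7 to 92.9). The late regions were lower in each range.

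In 31 late regions RelA was listed in littermate cells at both 3 and 8 h, and in 24 of these the deposited density was higher at 8 h, with medians of 18.2 and 22.5. Among the 731 hotspots already listed at 3 h that littermate cells also listed at both times, 58.5% were denser at 8 h. By littermate z score fewer of the 31 late regions were higher at 8 h than by density, and hardly more were higher than lower. At chr9:18257442-18258041, for example, the density was 22.8 and then 23.8, and the z score 29.0 and then 18.8. The littermate libraries may differ in scale, and no change in binding is read from these values. A further 55 late regions were in the littermate list at 3 h alone, 18.2%, and 201, 66.6% (60.9 to 71.9), in none, beside 26.8% and 29.2% of all 8 h hotspots. The median z score was 12.4 in the 201 and 14.4 in the 31, and over all 8 h hotspots it was likewise lower in those of no littermate list, at 13.0 against 24.0.

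Only 15 late regions showed the wild-type order in littermate cells too, being listed there at 8 h and at neither 0 nor 3 h. They were 4.97% (2.81 to 8.06) of the 302, beside 3.30% of all 8 h RelA hotspots. Ikaros was listed at 8 h in 9 of the 15, near the 60.3% of all late regions, and at 3 h in 1, where 14.2% of late regions had it. The strongest in wild-type cells was chr10:43137018-43137643, with a wild-type z score of 20.3 and density of 28.4, a littermate z score of 10.8 and density of 16.5, and Ikaros at 8 h alone (z 13.2). At chr8:47492022-47492631 (z 18.8, density 42.0) the littermate density was 24.5 and that of Ikaros at 8 h 44.7. The strongest by littermate z score, chr5:32470762-32471376 (wild-type z 16.9, littermate z 20.6), had no Ikaros hotspot at any time. The regions outside the 10 strongest in this paragraph were chosen after their values were seen.

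By both comparisons the late regions fell into 4 classes of unlike size. Those found in a littermate RelA list and in an Ikaros list numbered 71, 23.5% (18.8 to 28.7), beside 62.0% of all 8 h RelA hotspots. Another 113, 37.4% (31.9 to 43.1), were in an Ikaros list alone, beside 19.9% of all. A littermate list alone held 30, 9.93%, near the 8.79% of all. The remaining 88, 29.1% (24.1 to 34.6), were in neither, against 9.37% of all. The strongest of the 88 were chr15:62557882-62558590 (z 21.3, density 26.7), chr5:99803413-99804030 (z 20.5, density 40.7) and chr2:78890336-78891099 (z 19.6, density 33.5). Ikaros at 8 h was listed in 69.3% (59.3 to 78.1) of the 101 found in littermate cells and in 55.7% (48.6 to 62.7) of the 201 not found there. Over all 8 h RelA hotspots these shares were 86.3% and 66.3%, in the same order.

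Late regions lay a median of 2391560 bp from the next late region, but 27 of them formed 11 groups with gaps of at most 25 kb. Other hotspots of the 8 h list lay closer. The median distance to one already listed at 3 h was 120979 bp, and 46.4% of late regions had one within 100 kb. Groups were not counted over all 8 h hotspots, so neither spacing nor grouping is read as a trait of late regions. The largest, 4 regions from chr13:5786245-5828434, had 4 hotspots already listed at 3 h in or within 25 kb of it. Its members had z scores of 14.4, 15.5, 16.8 and 23.1. Littermate RelA was listed at both 3 and 8 h in 3 of the 4, and Ikaros at 8 h in 3 and at 3 h in 1.

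The group of 3 regions at chrX:163383164-163388919 had none of that company. Its nearest wild-type 3 h hotspot was 226680 bp away, no littermate list had a hotspot on it, and no hotspot already listed at 3 h lay within 25 kb. Their RelA densities were 19.3, 18.7 and 17.7, and all 3 overlapped an Ikaros hotspot of 8 h and none of 0 or 3 h. The first 2, 94 bp apart, overlapped the same Ikaros hotspot (z 14.8). At chr12:41440202-41445954, a group of 3, Ikaros was listed in 1 and littermate RelA at 3 h in 2. Of the 3 at chr8:47480214-47512086, 2 were listed in littermate cells, both at 8 h alone.

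Late regions lay on 20 chromosomes, and their share of the 8 h list is given as a description. On chromosome X 18 of 48 hotspots were late, 37.5% (24.0 to 52.6), on chromosome 13 26 of 94, 27.7% (18.9 to 37.8), and on chromosome 12 25 of 97, 25.8% (17.4 to 35.7). The lowest shares were 8.41% (3.92 to 15.4) on chromosome 1 and 9.23% (4.86 to 15.6) on chromosome 11. The rule fixed these shares over the whole list, and no difference between chromosomes was tested. Many of the late regions on X lay in the same stretch, chrX:163097504-163764227, which holds groups of 2 and 3 regions within 25 kb. The interval for X counts such neighbours as independent, and its share describes that stretch as much as the chromosome. Late regions on X had a median highest density of 14.7, against 20.3 over all 302, those on X included. The density of the other 8 h hotspots on X was not compared, so the lower value may not be particular to late regions. Of the 18 late regions on X, 10 carried Ikaros at 8 h and 1 was in the littermate 3 h list, beside 60.3% and 28.5% of all late regions. The labels give no sex, and whether copy number of X plays a part was not tested.

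**Figure D5:**
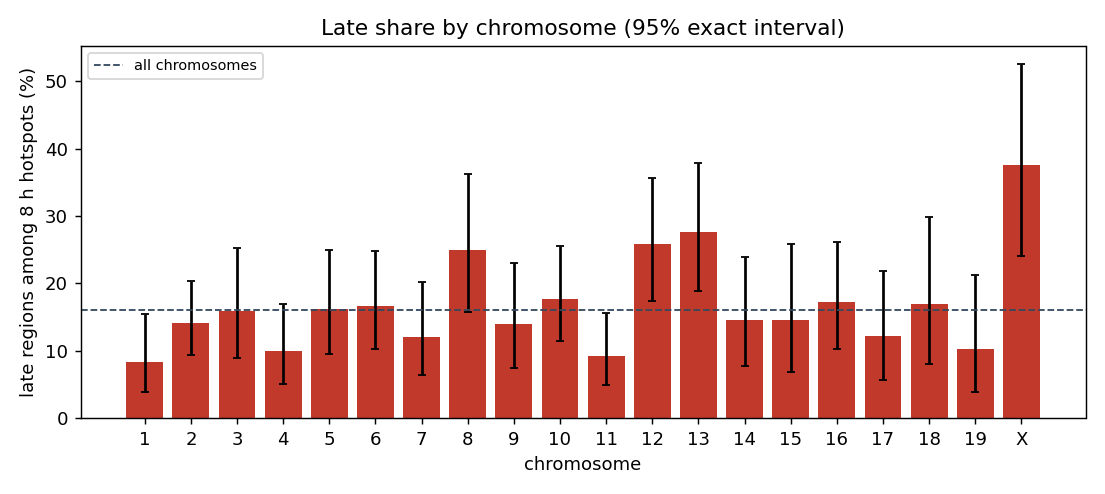
Percentage of wild-type RelA 8 h hotspots that were late (y axis, bars) on each chromosome (x axis), with 95% exact intervals (lines) and the share over all chromosomes (dashed line, 16.1%). Chromosomes X, 13 and 12 are highest, at 37.5%, 27.7% and 25.8%.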

How the data were processed

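Chromatin from macrophages was immunoprecipitated for RelA or Ikaros and sequenced. The build is mm9 and CASAVA is named, per the submitters' processing notes. Which aligner and caller were run, at which threshold, and whether input was subtracted is not given in the sources used here. Per the file headers, the authors deposited per hotspot a signal (highest and mean tag density), a z score and a p-value. The deposited score and signal served for description within one list, and the deposited p-value was not used.

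Computed here were overlaps of at least 1 bp, edge-to-edge distances, medians with binomial intervals, and shares with exact Clopper-Pearson 95% intervals. Members were defined on the lists as deposited. Lists searched for members, the littermate ones included, had hotspots on wild-type input removed. Whether starts count from 0 or 1 is not stated, and counting touching hotspots as overlapping changed 0 calls. Python 3.11.15, numpy 2.4.6, pandas 2.3.3, scipy 1.17.1 and matplotlib 3.10.9 were used, and overlaps and distances were checked against bedtools 2.31.1 on simulated lists.

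Regions named are the 10 strongest, the 5 farthest from and nearest to a 3 h hotspot, the 5 widest, the 5 strongest of each class by littermate and Ikaros list, and groups within 25 kb, of which a part is printed. Members and comparisons were chosen with earlier results of these data known. The planned motif and gene counts were not run, for want of an mm9 genome. Groups hold 1 library, so no test was made and none could be left out.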

Additional observations from a re-analysis of the deposited data

Results flagged for a closer look

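The number of late regions listed for littermate RelA was lower at 8 h than at 3 h, with a difference of -40 regions (86 at 3 h and 46 at 8 h). In wild-type cells it was higher at 8 h, with 0 and 302, which the choice of the regions fixes. The opposite directions drew attention to this result, and the difference between the series was not tested, since each has 1 library per time. The littermate count was also lower at 8 h over all 8 h RelA hotspots, with 1265 (67.4%) at 3 h and 826 (44.0%) at 8 h. The lower count at 8 h is therefore not particular to the late regions. Counting only littermate hotspots that reached a density of 10, the difference was -34 regions (80 and 46). When only the 5231 strongest hotspots of the 3 h list by z score were kept, there were 28 at 3 h and 46 at 8 h, so the direction turned. With the 5231 densest kept instead, there were 86 and 46, and it did not. For hotspots already listed at 3 h in wild type the direction stayed in both settings, with 823 and 780 by z score and 1179 and 780 by density.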

How the results depend on the processing

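For 12 results and 65 alternatives, 51 values stayed inside the 95% interval of the reported share or median, or within 1.5 times the reported number of regions, and 14 did not. A reciprocal overlap of at least 50% gave 498 late regions with a median width of 398 bp, Ikaros at 8 h in 44.4% of the 302, and Ikaros first at 8 h in 83.6% of those with it. Hotspots of highest density 20 or more alone gave 157 late regions. Members of z score 12 or more alone were in the littermate 3 h list in 35.4%. Holding lists to the shortest of their series by z score gave 9.27% for littermate RelA at 3 h, 0.662% for Ikaros at 3 h and 1.99% for Ikaros at 8 h, the last 2 because only 853 Ikaros hotspots remained. With only the 7109 strongest Ikaros hotspots of 8 h, 33.8% of late regions carried Ikaros at 8 h, 61.8% of these for the first time. Without members in the littermate 3 h list, 6.94% were in that of 8 h. The median distance was 83810 bp to 3 h hotspots of z score 12 or more and 19367 bp to littermate 3 h hotspots, of which 86 overlapped a member. Settings that name the Ikaros 3 h length, list length by density, the littermate 3 h list as a filter, or Ikaros first at 8 h were added after the data were seen. No paired analysis was possible because each group has 1 library and the values come from no test. Depth is unknown, so the weakest binding each library could show is too.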

Other observations

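Seen from the Ikaros list of 8 h, late RelA regions took a larger share of its newly listed hotspots than of its older ones, and RelA hotspots already listed at 3 h took a smaller one. Of the 7914 Ikaros hotspots first listed at 8 h, 140 lay on a late RelA region, 1.77% (1.49 to 2.08), against 43 of the 5882 listed earlier, 0.731% (0.530 to 0.983). RelA hotspots already listed at 3 h lay on 4.44% (3.99 to 4.91) and 16.4% (15.4 to 17.3) of them.

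Under the same rule within the littermate series, 3443 of its 5231 hotspots of 8 h were at neither 0 nor 3 h, and 15 of these lay on a late region of wild-type cells. With a highest density of 10 or more alone there were 134 of 1026, and the same number, 15, lay on a late region. The 3443 were 65.8% of their list and the 134 were 13.1% of theirs. In either setting the whole littermate 8 h list met 46 late regions. Beside these shares, 15 is few in the first setting and many in the second, so nothing is read from it.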
